A study of Mus musculus with 2 samples.

Results

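The genes described here are 10 that mark resident macrophages of the peritoneal cavity, namely Gata6, Timd4, Icam2, Prg4, Selp, Garnl3, Rarb, Tgfb2, Naip1 and Lyz1. They were chosen by their gene symbol and are 10 of the 54532 genes in the deposited table. RNA was sequenced from macrophages sorted on F4/80 and CD11b out of trypsin-digested aorta of male ApoE-/- mice on the C57BL/6J background, whose age is labelled as 6 weeks in both groups. The PDR group (Phlegm-Dampness Retention syndrome) received a high-fat diet for 4 weeks. The SKYD group (Spleen and Kidney Yang Deficiency syndrome) was gavaged with propylthiouracil, which lowers thyroid hormone, at 10 mg/kg/day for 4 weeks and then received the high-fat diet for 2 weeks. Each group pooled the cells of 5 mice into 1 library, so that no difference has a replicate check and no test between the groups could be made. Syndrome, drug, time on the diet and age at collection cannot be told apart.

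Reads on genes came to 23086889 in PDR against 25427863 in SKYD, recovered from FPKM (fragments per kilobase of gene, scaled to the size of the library), of which every value was a whole multiple of what 1 read is worth. Intervals are exact 95% intervals for counting error alone, and how mice differ is not in them. Where 0 reads were counted, up to 3 are allowed, a share of 1.3e-05% in PDR against 1.18e-05% in SKYD. The gene of F4/80, Adgre1, had 87.3 FPKM in PDR against 93.3 in SKYD, and the gene of CD11b, Itgam, had 8.84 and 14.4. Apoe, which the genotype label gives as knocked out, had 17336 reads or 345 FPKM in PDR against 3618 reads or 67.7 FPKM in SKYD, which at the level of the whole gene goes against the label. Values per gene do not show whether the reads came from the deleted part. Genes of B cells and T cells also had reads in both libraries, as did genes of other cells. The immunoglobulin gene Igkc had 55958 FPKM in PDR against 25888.5 in SKYD. The haemoglobin gene Hba-a1 had 10807 and 15651, and the albumin gene Alb, of the liver, had 258 and 72.8. The source of these reads was not tested. Each of the 10 genes is annotated as protein-coding in the deposited table, and positions are those of the whole gene on GRCm38.

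Macrophages of each tissue share a core programme and add genes that the tissue induces. In the peritoneal cavity, large resident macrophages depend on the transcription factor GATA6, which is induced by retinoic acid from cells of the cavity lining and the omentum, and they take up dying cells through the receptor TIM-4. Several of the 10 genes are also used by other cells, such as P-selectin by platelets and endothelium, lubricin by the lining of joints, and lysozyme 1 by Paneth cells of the gut, so the genes of those cells are given beside them.

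Each of the 10 genes had reads in both libraries, and their levels spanned more than 3 orders of magnitude. In FPKM, the order in PDR was Lyz1, Icam2, Timd4, Prg4, Selp, Garnl3, Rarb, Gata6, Naip1 and Tgfb2. The counting intervals of Timd4 and Prg4 overlapped there, and so did those of Naip1 and Tgfb2. The order in SKYD was the same apart from Prg4, which stood above Timd4, and the neighbours whose intervals overlapped were Timd4 and Selp. Lyz1 lay above 99.1% of the genes with reads in PDR and above 99.7% of those in SKYD, while Tgfb2 lay above 28.7% and 36.8%. The transcription factor that names the programme, Gata6, was near the middle, above 43.6% of these genes in PDR and 56.6% of them in SKYD.

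**Figure D1:**
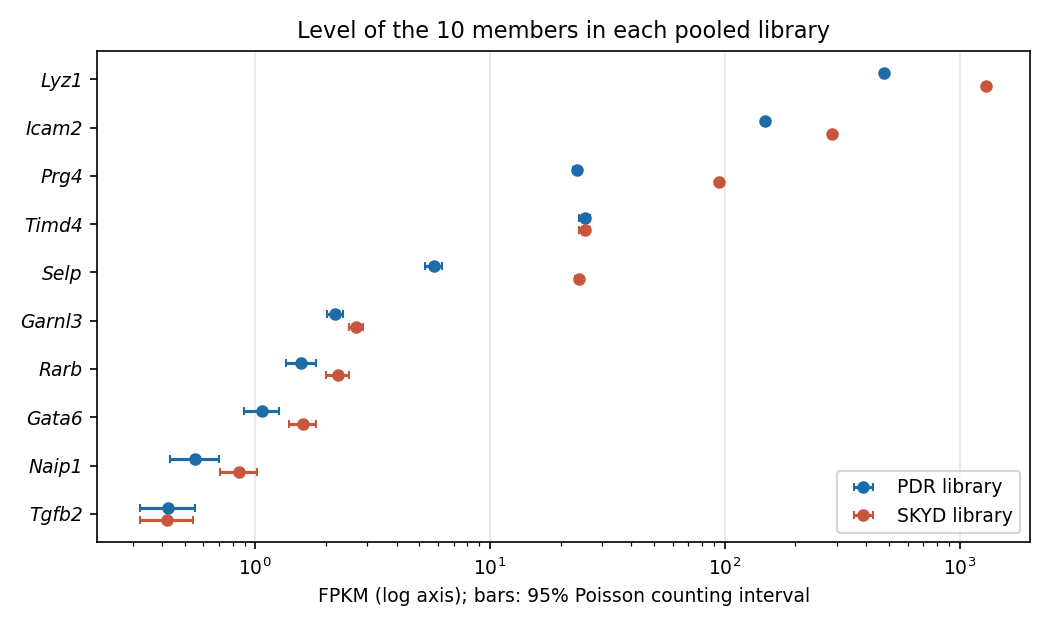
FPKM of the 10 genes (log axis) in the PDR and SKYD samples, 1 pooled library each, with exact 95% Poisson counting intervals. The points of Timd4 and Tgfb2 lie on each other, and those of Prg4 and Selp lie farthest apart.

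Compared as log2(FPKM + 1), PDR minus SKYD, 8 of the 10 genes had the mean FPKM of at least 1 required of a gene to be compared, and Tgfb2 and Naip1 did not. Of the 8, Prg4, Selp and Lyz1 were higher in SKYD by more than 2-fold, 0 were so in PDR and 5 were within 2-fold. Among the 10399 genes compared, 6.91% passed 2-fold toward SKYD and 7.38% passed it toward PDR. The counting interval of the FPKM ratio of SKYD to PDR lay above 1 for 7 of the 8 genes compared and held 1 for Timd4. Of the 10399 genes, 37.7% had an interval above 1 and 36.8% had one below 1. Of the remaining pair, Naip1 had an interval above 1 and that of Tgfb2 held 1. In bulk RNA, fewer cells of a type and less RNA per cell cannot be told apart, and this applies to each difference given here.

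**Figure D2:**
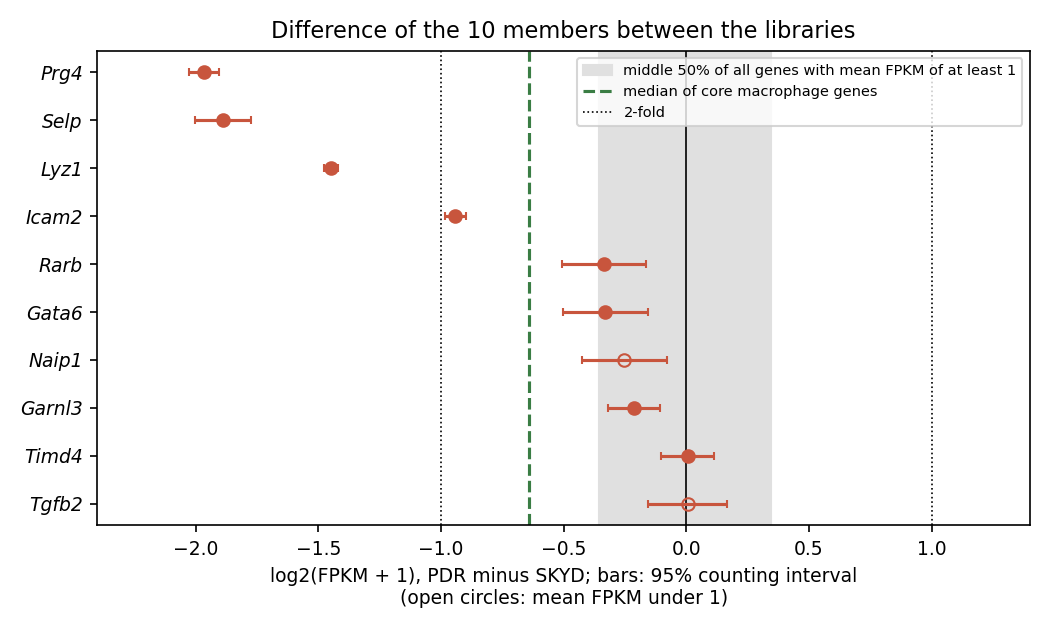
Difference in log2(FPKM + 1), PDR minus SKYD, of the 10 genes with 95% counting intervals. Prg4, Selp and Lyz1 lie beyond the 2-fold line on the SKYD side, Icam2 lies just inside it, and the other 6 overlap the grey band from -0.36 to 0.35 that holds the middle 50% of the genes compared. The dashed green line marks the median of core macrophage genes, -0.64.

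Gata6 (ENSMUSG00000005836, chromosome 18), the zinc-finger factor on which the cavity programme depends, had 140 reads or 1.07 FPKM in PDR against 223 reads or 1.60 FPKM in SKYD. Its level was higher in SKYD, with an FPKM ratio of SKYD to PDR of 1.50 (95% CI 1.21 to 1.86), and its difference in log2(FPKM + 1) was -0.33 (95% CI -0.50 to -0.15). Of the genes compared, 26.5% had a more negative difference, so that Gata6 lay near the lower quartile. The other GATA factors with reads were Gata3, a factor of T cells and other lymphocytes, with 42 reads or 0.450 FPKM in PDR against 156 reads or 1.57 FPKM in SKYD, and Gata1, a factor of red cell and platelet precursors, with 16 and 17. Gata2 had 1 and 8 reads, Gata4 had 3 and 0, and Gata5 had 0 and 4. Per length, Gata6 stood above these 5 relatives in PDR, while in SKYD its counting interval (1.39 to 1.82 FPKM) held the level of Gata3. The non-coding gene 1010001N08Rik, on the opposite strand, overlaps Gata6 over 60 bases and had 12 reads in PDR against 25 in SKYD.

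Rarb (ENSMUSG00000017491, chromosome 14 from 16430839 to 16819156 of GRCm38, minus strand), a nuclear receptor for retinoic acid whose own gene retinoic acid induces, had 194 reads or 1.57 FPKM in PDR against 295 reads or 2.24 FPKM in SKYD. Its ratio of SKYD to PDR was 1.43 (95% CI 1.19 to 1.72) and its difference in log2(FPKM + 1) was -0.34 (95% CI -0.51 to -0.16), close to the values of Gata6. The opposite-strand neighbour Top2b overlaps Rarb over 4624 bases and had 355 and 609 reads, and reads of the overlap cannot be placed without knowing whether strand was used in counting.

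Retinoic acid receptors are known to bind direct repeats with a spacer of 5 bases, and the window before a start of Rarb that lies inside the deposited gene holds such a repeat. The site and its nearest bases (RefSeq, GRCm38.p6, chr14:16575507-16575535, minus strand), which also lie in an exon of 2 Rarb transcripts annotated by GENCODE, are shown because retinoic acid is known to act on the gene through such a repeat, with the match to GGTTCA, 5 bases of any kind and AGTTCA in capitals, at bases 53 to 37 before the start.
Rarb: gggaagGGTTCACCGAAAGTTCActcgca
That motif was found, on either strand, in 2 of 32851 promoter windows, the 250 bases before each start (0.00609%). The RefSeq windows matched 7 of the 10 genes (not Gata6, Icam2 and Prg4), 8 windows in all, and the 1 that held the motif was that of Rarb, for whose element the motif was written, so that this match was fixed by the choice of motif. The general form, AGGTCA repeated after 5 bases of any kind, was in 3 of all windows (0.00913%) and in 0 of the 8. The GATA motif AGATAA was in 3281 of all windows (9.99%) and in 0 of the 8, which says only that these letters are not in these windows. A match is a description of the sequence and not a measure of binding.

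Among 17 other genes of the retinoid pathway, 9 reached the mean FPKM of 1, with a median difference of -0.16. Of these 9, 2 passed 2-fold toward SKYD and 1 toward PDR, beside 6.91% and 7.38% of all genes compared. Aldh1a2, which makes retinoic acid, had 11.6 FPKM in PDR against 22.4 in SKYD, a difference in log2 of -0.90. Dhrs3, a retinaldehyde reductase, had 10.2 and 28.7 FPKM, a difference in log2 of -1.41. Cyp26a1, which degrades retinoic acid, had 57 and 179 reads, a difference in log2 of -1.09. Others were higher in PDR. Aldh1a1, which also makes retinoic acid, had 7.78 FPKM in PDR against 3.77 in SKYD, a difference in log2 of 0.88, and Rbp4, the retinol carrier of plasma, which the liver makes, had 103 and 30.6, a difference of 1.72. The other retinoic acid receptors were Rara, with 5.29 FPKM in PDR against 5.44 in SKYD, and Rarg, with 30 reads or 0.300 FPKM against 99 reads or 0.930 FPKM. Their partner receptors were also detected, Rxrb with 760 and 916 reads and Rxra with 134 and 273. Per length, Rarb therefore stood below Rara and above Rarg in both libraries.

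Timd4 (ENSMUSG00000055546, chromosome 11 from 46810800 to 46844332), which encodes the phosphatidylserine receptor TIM-4 of dying-cell uptake, had 1294 reads or 25.4 FPKM in PDR against 1372 reads or 25.3 FPKM in SKYD. The levels could not be told apart by counting error, with a ratio of 0.996 (95% CI 0.923 to 1.08) and a log2 difference of 0.0050 (95% CI -0.10 to 0.11). Timd4 was thus the gene of the 8 compared whose difference was nearest to 0. Its relatives had lower levels, with 6.85 FPKM in PDR against 5.65 in SKYD for Havcr2 (TIM-3), 2.69 and 1.23 for Havcr1 (TIM-1), and 1.96 and 0.311 for Timd2. In log2(FPKM + 1), Timd2 had a difference of 1.18 and reached the mean FPKM of 1 through PDR alone. Havcr1 had 0.73, which is within 2-fold on this scale, although its plain FPKM ratio is not.

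Icam2 (ENSMUSG00000001029, chromosome 11 from 106377656 to 106388075, minus strand), an adhesion molecule that binds the integrin LFA-1, had 6615 reads or 148 FPKM in PDR against 13558 reads or 285 FPKM in SKYD. It was higher in SKYD, with a ratio of 1.93 (95% CI 1.87 to 1.98) and a log2 difference of -0.94 (95% CI -0.98 to -0.90), just inside the 2-fold threshold. Endothelium also carries ICAM-2. Of 10 endothelial genes, 0 reached a mean FPKM of 1, and their summed FPKM was 2.51 in PDR against 1.82 in SKYD. The most abundant of them were Cldn5, with 22 and 12 reads, Egfl7, with 41 and 35, and Esam, with 20 and 37. Their part in the level of Icam2 was not tested. The inflammatory relative Icam1 went the other way, with 15.1 FPKM in PDR against 5.43 in SKYD, a difference in log2 of 1.33. Icam5 had 10 and 0 reads. The LFA-1 subunits Itgal and Itgb2 had differences of 0.27 and -0.26.

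Selp (ENSMUSG00000026580, chromosome 1 from 164115264 to 164150026), which encodes P-selectin, a lectin that tethers leukocytes, had 596 reads or 5.75 FPKM in PDR against 2644 reads or 24.0 FPKM in SKYD. Its FPKM ratio of SKYD to PDR was the largest of the 10 genes, 4.17 (95% CI 3.81 to 4.56), and its log2 difference was -1.89 (95% CI -2.00 to -1.77). Platelets and endothelium also store P-selectin. The 12 platelet genes had a summed FPKM of 255 in PDR against 1472 in SKYD, most of it from Pf4, a chemokine of platelets that macrophages can also express, with 218 and 1446. Of the others, Ppbp had 585 and 537 reads, Gp9 had 103 and 82, Itga2b had 167 and 52, Itgb3 had 42 and 84, and Gp1bb had 0 in both. The part of platelets or endothelium in the difference of Selp was not tested.

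The endothelial relative of Selp, Sele, had 33 reads in PDR against 9 in SKYD, the opposite direction to Selp. Selplg, the ligand of P-selectin on leukocytes, had 82.3 and 105 FPKM, a difference in log2 of -0.34. A pair of non-coding genes on the opposite strand overlap Selp, Gm16587 with 37 reads in PDR against 159 in SKYD and Gm16548 with 4 and 23, both far fewer than those of Selp.

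Prg4 (ENSMUSG00000006014, chromosome 1 from 150449412 to 150466165, minus strand), which encodes the lubricating glycoprotein lubricin, had 2360 reads or 23.5 FPKM in PDR against 10117 reads or 94.6 FPKM in SKYD. On the log2(FPKM + 1) scale it had the largest difference of the 10 genes, -1.97 (95% CI -2.03 to -1.90), and its FPKM ratio of SKYD to PDR was 4.03 (95% CI 3.85 to 4.21). Of the genes compared, 2.13% had a more negative difference. Joint lining and cartilage also make lubricin, and the cartilage genes Acan, Col2a1 and Col9a1 had 0 reads in both libraries. Of the 10 synovial and cartilage genes, 1 reached a mean FPKM of 1, Clu, with 20.7 FPKM in PDR against 7.89 in SKYD. Comp had 0 reads in PDR against 38 in SKYD, Cilp had 5 and 33, Matn3 had 0 and 14, Chad had 0 and 4, and Htra4 had 16 and 12. The neighbour Tpr overlaps Prg4 over 524 bases on the opposite strand, with 819 and 1309 reads.

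Tgfb2 (ENSMUSG00000039239, chromosome 1 from 186622792 to 186705989, minus strand), a secreted growth factor of the TGF-beta family, had the lowest level of the 10 genes. It had 58 reads or 0.426 FPKM in PDR against 61 reads or 0.421 FPKM in SKYD, a ratio of 0.988 (95% CI 0.679 to 1.44). This depth could not show a difference smaller than that interval. The other ligands were higher in SKYD, Tgfb1 with 72 reads in PDR against 381 in SKYD, and Tgfb3 with 5 and 34 reads. The receptors had differences within 2-fold, -0.20 for Tgfbr1 and 0.27 for Tgfbr2, and Tgfbr3 had 57 and 82 reads.

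Lyz1 (ENSMUSG00000069515, chromosome 10 from 117287797 to 117292868, minus strand), a lysozyme that cuts bacterial cell walls, had the highest level of the 10 genes, with 14123 reads or 476 FPKM in PDR against 41050 reads or 1300 FPKM in SKYD. Its ratio of SKYD to PDR was 2.73 (95% CI 2.68 to 2.78) and its log2 difference was -1.45 (95% CI -1.48 to -1.42). The neighbouring Lyz2, the lysozyme of macrophages and neutrophils at large, had 22217 and 41336 FPKM, a difference in log2 of -0.90. Lyz1 was 2.02% of the reads of both lysozymes in PDR against 2.93% in SKYD. Both genes are near copies, and 24 of the 1164 windows of 100 bases in the Lyz1 transcript (2.06%) also occur in Lyz2. They are 1.97% of the 1217 windows of Lyz2, which had 686737 reads in PDR against 1359594 in SKYD. Were Lyz2 reads of shared sequence counted for Lyz1, they could be a large part of its count. The count and ratio of Lyz1 are thus uncertain where the authors' counting could have split shared reads. Its counting interval leaves this out. The sequences before their RefSeq starts are also alike. The 250 bases before the start of Lyz1 (RefSeq, GRCm38.p6, chr10:117292869-117293118, minus strand) are shown with the longest run shared with Lyz2 at the same place in capitals.
Lyz1: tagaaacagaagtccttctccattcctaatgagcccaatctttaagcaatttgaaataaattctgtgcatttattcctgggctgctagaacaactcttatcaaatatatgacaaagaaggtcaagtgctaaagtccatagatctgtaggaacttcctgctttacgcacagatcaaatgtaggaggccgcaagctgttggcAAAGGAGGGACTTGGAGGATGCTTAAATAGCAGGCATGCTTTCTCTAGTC
The shared run is the last 50 bases before the RefSeq start, and 152 of the 250 positions (60.8%) are identical. At Lyz2 the deposited gene begins farther upstream, and 49 of the 50 bases lie inside it, while at Lyz1 none do. Of 9 other genes of Paneth cells, which are known for Lyz1, 8 had 0 reads in both libraries, the defensins among them, and Sox9 had 8 and 8.

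Garnl3 (ENSMUSG00000038860, chromosome 2 from 32986224 to 33131654, minus strand), which encodes a protein with a domain of the Rap GTPase-activating kind, had 636 reads or 2.19 FPKM in PDR against 833 reads or 2.70 FPKM in SKYD. The ratio was 1.23 (95% CI 1.11 to 1.37) and the log2 difference -0.21 (95% CI -0.32 to -0.11), inside the middle 50% of the genes compared. Other genes for regulators of Rap went the other way, with 1550 reads in PDR against 714 in SKYD for Sipa1, 61 and 33 for Rap1gap and 200 and 126 for Rap1gap2.

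Naip1 (ENSMUSG00000021640, chromosome 13 from 100407764 to 100452869, minus strand), a sensor of the needle protein of bacterial secretion systems, had 72 reads or 0.554 FPKM in PDR against 118 reads or 0.853 FPKM in SKYD. Its ratio was 1.54 (95% CI 1.14 to 2.09), with the widest interval of the 8 genes whose interval lay above 1. The paralogues did not share one direction. Naip2 had 454 reads in PDR against 278 in SKYD, Naip5 had 146 and 185, and Naip6 had 34 and 48. Nlrc4, the partner of the NAIP sensors, had 110 and 57 reads. Of the 5632 windows of 100 bases in the Naip1 transcripts, 731 also occur in Naip2, Naip3, Naip3-ps1, Naip5 or Naip6, so that the level of Naip1 is uncertain in both libraries. The 8 genes other than Naip1 and Lyz1 shared 0 such windows with another gene.

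Over the 8 genes compared, the median difference was -0.64, beside -0.0035 over the 10399 genes. Without Lyz1, the median over the other 7 was -0.34. Over the 5 whose mean FPKM was at least 5 it was -1.45. The 10 genes together took 0.113% of PDR reads (95% CI 0.112 to 0.114) against 0.276% of SKYD reads (95% CI 0.274 to 0.278). Without Lyz1, which supplied 54.1% of these reads in PDR against 58.4% in SKYD, the shares were 0.0518% and 0.115%.

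**Figure D3:**
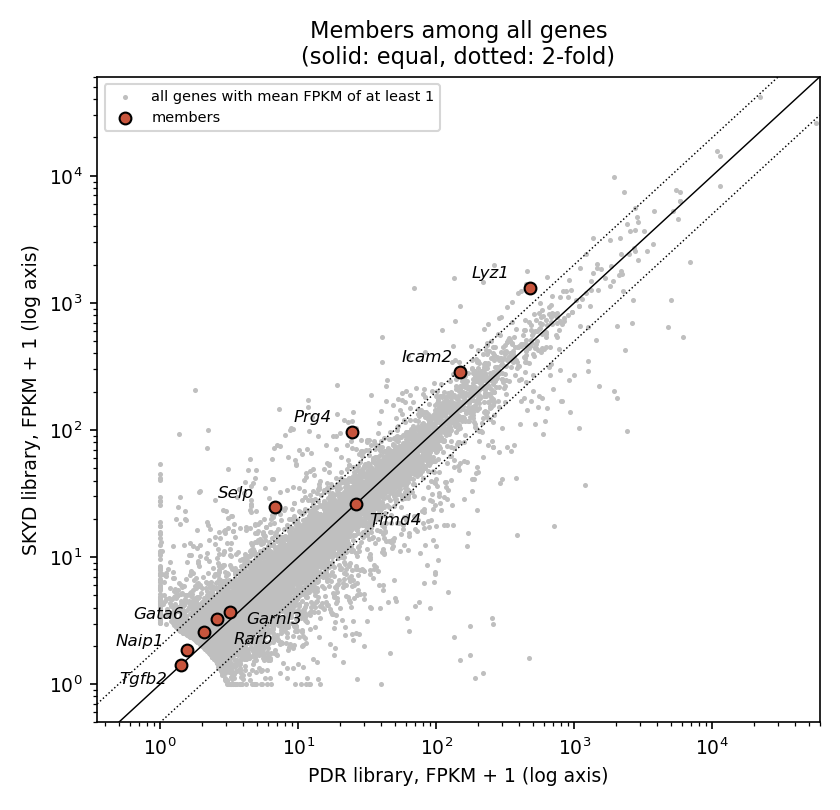
FPKM + 1 in PDR (x, log axis) and in SKYD (y, log axis) of the 10 genes, in red, among the 10399 genes compared, in grey. Lyz1, Prg4 and Selp lie above the upper 2-fold line, Icam2 lies just under it, and the 6 others lie near the line of equal levels.

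Most core macrophage genes were also higher in SKYD. Of 15 such genes, 13 were lower in PDR, as were 50.4% of the 10399 genes compared. The 2 that were higher in PDR were the receptor genes Csf1r and Fcgr1. Csf1r had 57.7 FPKM in PDR against 44.9 in SKYD, a log2 difference of 0.35, and Fcgr1 had 51.9 and 35.3, a difference of 0.54. By more than 2-fold, 5 of the 15 were lower in PDR, where 6.91% of all genes compared were so. The median of the 15 was -0.64, beside -0.64 for the 8 peritoneal genes compared. By FPKM the leading genes were Lyz2, then C1qb, a complement subunit, with 1362 FPKM in PDR against 3240 in SKYD, and C1qc, with 392 and 1184. Centred on the median of the core macrophage genes, a scale chosen after the data were seen, the median of the peritoneal genes was 0.0041, and 2 of them, Prg4 and Selp, were higher by more than 2-fold in SKYD. That scale moves the median of all genes compared to 0.64, and on it Gata6, Rarb, Garnl3 and Naip1 changed sign, to between 0.31 and 0.43. Adgre1, one of the sort markers, had a log2 difference of -0.10, and Itgam had -0.64.

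A further 20 genes known from peritoneal macrophages were each lower in PDR, beside the same 50.4% of all genes. Of these 20, 11 were so by more than 2-fold, where 6.91% of all genes compared were. Their median was -1.08, with a range from -3.45 to -0.094. This list, too, was chosen with earlier results of these data known. Their summed FPKM was 3815 in PDR against 8336 in SKYD. Slpi, a protease inhibitor, had 2408 and 4169 FPKM, Saa3, an acute phase protein, had 456 and 1767, and Alox15, the lipoxygenase of resident peritoneal macrophages, had 236 and 683. The largest difference was that of Cxcl13, a chemokine that draws B cells into body cavities, with 153 reads in PDR against 2061 in SKYD. Vsig4, a complement receptor, had 109 and 1417 reads. The smallest was that of the complement gene C4b. Genes of small peritoneal macrophages and cavity dendritic cells divided, with a median of -0.39. Of these 10, 4 were higher by more than 2-fold in SKYD, beside the same 6.91% of all genes. Retnla had 1939 FPKM in PDR against 9809 in SKYD and Cd209a had 42.4 and 167, whereas Napsa, an aspartic protease, had 141 and 127 FPKM, the monocyte receptor Ccr2 had a log2 difference of 0.04 and Irf4 of 0.23.

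Gata6 was set beside the factors that mark macrophages of other tissues. In FPKM it stood below Spic of the spleen red pulp, with 4.39 in PDR against 11.8 in SKYD, below Pparg of the lung, with 5.02 and 4.66, and below Nr1h3 of liver and spleen, with 13.2 and 14.3. It stood above Sall1 of microglia, which had 1 and 0 reads. Such factors also act in other macrophages, so that these levels are no measure of a tissue's share. The other genes of those macrophages had reads in the same libraries. Of 8 Kupffer cell genes compared, with a median of -0.32, 1 was higher by more than 2-fold in SKYD, where 6.91% of all genes were so. Cd5l had 110 FPKM in PDR against 159 in SKYD and Id3 had 44.3 and 64.1. Of the 8, 3 were higher in PDR, Il18bp with 36.0 and 20.2 FPKM, Marco with 8.80 and 4.47, and Clec1b with a difference of 0.03. The more restricted Clec4f had 37 and 41 reads. Timd4 is also used by Kupffer cells and some vessel wall macrophages. For spleen red pulp macrophages the count was 4 of 7, of which Cd163 reached the mean FPKM of 1 through SKYD alone. The median of these 7 was -1.24. Hmox1 had 30.4 FPKM in PDR against 79.5 in SKYD and Slc11a1 had 33.6 and 56.7, while Treml4 had 48.7 and 29.2. Among 11 vessel wall macrophage genes compared, 4 were higher by more than 2-fold in SKYD, with a median of -0.84. The most abundant were Selenop, with 101 FPKM in PDR against 202 in SKYD, Spp1, with 72.5 and 102, and Ccl8, with 66.6 and 52.1. Lyve1, of resident vessel wall macrophages, had 3.84 FPKM in PDR against 17.3 in SKYD, and Folr2 had 2.53 and 6.52.

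Alveolar macrophage genes included Chil3, with 2264 FPKM in PDR against 1245 in SKYD, Ear2, with 295 and 769, and Fabp4, with 23.0 and 99.5, while the more restricted Siglecf had 18 and 14 reads, Car4 had 0 and 4, and Krt79 had 0 in both. Of the microglia genes, Fcrls had 34.9 FPKM in PDR against 70.4 in SKYD and Tmem119 had 1.64 and 10.5, while Gpr34 had 15.8 and 7.35. Toward SKYD, 4 of the 6 alveolar genes compared passed 2-fold, with a median of -1.22 over the 6. So did 2 of the 5 microglia genes compared, with a median of -0.99 over the 5, while Gpr34 passed it toward PDR. Among all genes compared, 6.91% passed 2-fold toward SKYD and 7.38% toward PDR. Blood monocyte genes were the macrophage-lineage list with a median on the PDR side, 0.43 over 9 genes, of which 0 passed 2-fold toward SKYD and 2 toward PDR, beside 7.38% of all genes toward PDR. Plac8 had 1813 FPKM in PDR against 1349 in SKYD, Ly6c2 had 1436 and 512, and Fcgr4 had 775 and 436. From single libraries no test of tissue origin could be made, and none of these lists is given as the source of the RNA. In the plot of the lists, Slc40a1, Cd163, Atp6v0d2, Siglech and Upk3b reached the mean FPKM of 1 through SKYD alone, and Tubb1, Treml1 and Gp5 did so through PDR alone, so that the medians of their lists are drawn as a description.

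**Figure D4:**
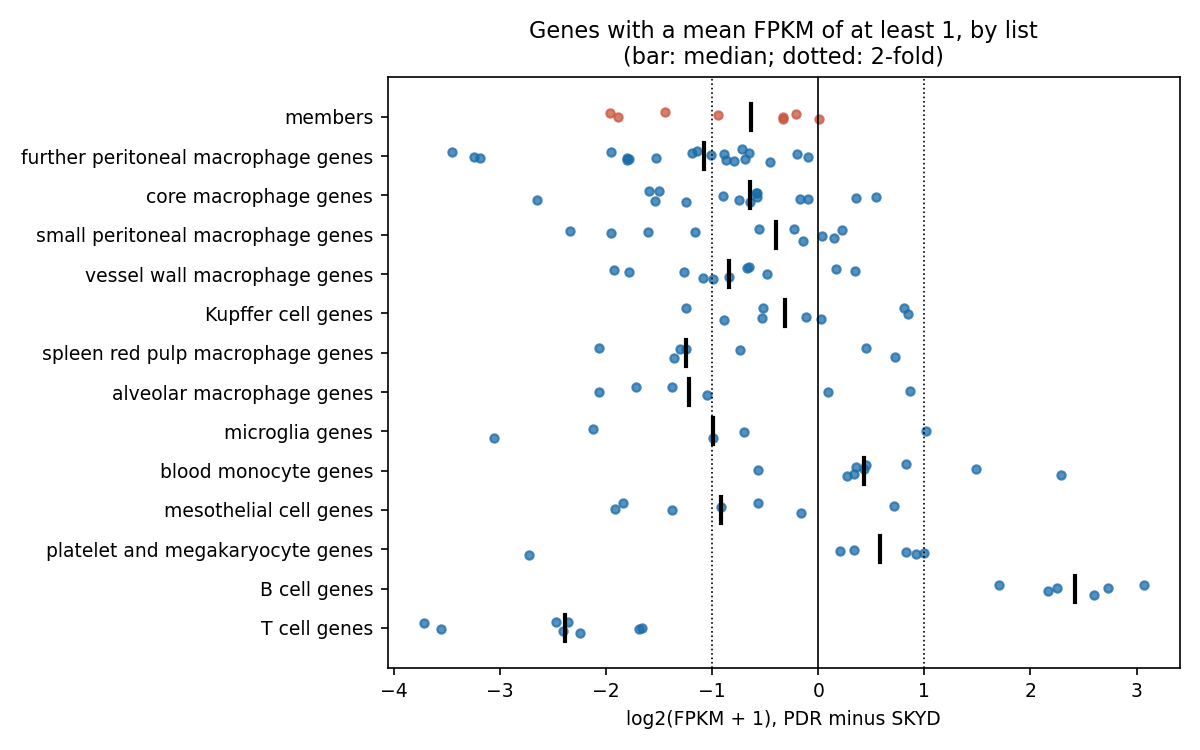
Difference in log2(FPKM + 1), PDR minus SKYD, of the genes compared in the 10 peritoneal identity genes (members) and in 13 other lists, with black bars at the medians and dotted lines at 2-fold. The members lie from -1.97 to 0.0050, most macrophage lists centre below 0, blood monocyte and B cell genes centre above 0, and T cell genes lie from -3.72 to -1.66.

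Genes of other cells differed between the libraries too. Of 10 mesothelial genes, which mark the lining of the cavity, 7 were compared, Upk3b among them through its level in SKYD alone, with a summed FPKM of 30.8 in PDR against 63.4 in SKYD. The keratins Krt18, Krt8 and Krt19, the most abundant of the list, had differences of -0.16, -1.84 and -1.38. Upk3b had 63 and 497 reads and Msln had 146 and 255, while Wt1 had 0 and 9. Of the 7 compared, 6 were lower in PDR, as were 50.4% of all genes compared, with a median of -0.92. The 1 that was higher in PDR was Gpm6a, with 336 reads against 187 in SKYD, a difference of 0.71. Muc16, which was not compared, had 29 and 22 reads. Of 10 fibroblast genes, 2 were compared, Dcn and Lum, and Lum reached the mean FPKM of 1 through SKYD alone. Dcn had 1375 reads in PDR against 5747 in SKYD, Lum had 11 and 130, Col3a1 had 122 and 291, and the list's summed FPKM was 11.3 and 44.5. The part of such cells in the levels of Prg4, Selp and Lyz1 was not tested.

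Of 8 genes of smooth muscle, the main cell of the aortic wall, Myh11, Tagln, Cnn1 and Lmod1 had 0 reads in both libraries. The 3 that were compared were Myl9, with 352 reads in PDR against 113 in SKYD, past 2-fold toward PDR, Des, with 141 and 55, which was compared through PDR alone, and Acta2, with 65 and 104. Genes of B cells and of T cells differed in opposite directions. Each of the 6 B cell genes compared was higher by more than 2-fold in PDR, beside 7.38% of all genes compared. Their median was 2.42, and the list's summed FPKM was 1692 in PDR against 384 in SKYD. Cd79b, Cd79a and Ms4a1 had differences of 2.25, 1.70 and 3.07. Each of the 8 T cell genes was higher by more than 2-fold in SKYD, beside 6.91% of all genes compared. Their median was -2.38, and their summed FPKM was 182 in PDR against 1260 in SKYD. Cd8b1, Cd3d and Cd3g had differences of -3.72, -2.36 and -2.47. Whether these shares of other cells bear on the levels of the peritoneal genes was not tested.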

How the data were processed

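RNA of F4/80 and CD11b sorted cells was measured in 2 samples, 1 pooled library of 5 mice for each group. The authors removed adaptor and low-quality reads, aligned with TopHat2 (2.0.9 with Bowtie2 2.0.6 in the submitters' notes, which name mm9), counted with HTSeq (0.6.1) and deposited FPKM with gene length and position. The positions match a GRCm38 annotation. Whether counting used strand is not given in the sources used here. Reads were recovered from the deposited FPKM as the number that makes FPKM times length whole, within 0.05, and were whole for 100% of genes above 0.

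Differences are log2(FPKM + 1), PDR minus SKYD, over genes whose mean FPKM was at least 1, and more than 2-fold was counted. A pseudocount understates differences of low genes. Ratios carry exact (Clopper-Pearson) intervals. With 1 library per group no p-value was computed. The 10 genes and the 25 other lists were chosen with earlier results of these data known. Named were the 10 genes, 3 genes per list, those of highest mean FPKM, and relatives with reads. Other genes were chosen after their values were seen, and 2 libraries allow no measure of likeness between genes. Alternatives were pseudocounts of 0.1 and 0.01, no filter, a mean FPKM of at least 5, TPM, reads scaled by library total, median centring, protein-coding genes, a 4-fold threshold and leaving out Lyz1. Centring on core macrophage genes was added after seeing the data, as was the count without Lyz1. Every sample column was mapped. A relative with reads is not reported here. Steps were tested on simulated data, in Python 3.11.15 (scipy 1.17.1, numpy 2.4.6, matplotlib 3.10.9 and pandas 2.3.3).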

Additional observations from a re-analysis of the deposited data

How the results depend on the processing

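No paired analysis was possible because each group had 1 library, and no library could be left out. The number of the peritoneal genes higher by more than 2-fold in SKYD, 3, was 3 under both other pseudocounts, both other filters, TPM, reads scaled by library total, median centring and protein-coding genes. It was 2 when centred on core macrophage genes, 2 without Lyz1 and 0 at a 4-fold threshold, where the FPKM ratios of Prg4 and Selp, 4.03 and 4.17, lie past 4-fold but their differences in log2(FPKM + 1) do not. The median, -0.64, was -0.76 with a pseudocount of 0.01, -0.33 with no filter, -1.45 with a mean FPKM of at least 5, 0.0041 when centred on core macrophage genes and -0.34 without Lyz1. The share of reads without Lyz1 was 0.0518% in PDR against 0.115% in SKYD. Filters change which genes enter, and the cause of the other shifts was not tested. Of 60 values of the 10 genes under both other pseudocounts, TPM, reads scaled by library total and both centrings, 41 stayed within their counting interval and 19 moved beyond it. Of these, 4 changed sign, those of Gata6, Rarb, Garnl3 and Naip1 when centred on core macrophage genes, at 0.31, 0.31, 0.43 and 0.39. TPM and reads scaled by library total shifted the median of the genes compared by 0.0094 and 0.041. Depth limits Tgfb2, Naip1, Gata6 and Rarb most, and shared sequence limits Naip1 and Lyz1.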

Other observations

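Genes of other cell types that are known from the peritoneal cavity, and also from other tissues, were looked up in the same libraries, and the source of these reads was not tested. Of 8 genes of connective tissue mast cells, Tpsb2, Tpsab1, Mrgprb2 and Mcpt4 had 0 reads in both libraries, and Cpa3, a mast cell protease, had 205 reads in PDR against 530 in SKYD. Hdc, which makes histamine, had 618 and 712, and Cma1 had 66 and 15. Of 6 eosinophil genes, 2 were compared. Prg2, of the eosinophil granule, had 286 and 487 reads and Il5ra had 363 and 173, while Ear6 had 0 and 35 and Epx had 0 in both. For 5 compared genes of B-1 cells, the B cells of body cavities, the median difference was -0.09, with 1 gene past 2-fold on each side. Of all genes compared, 6.91% passed 2-fold toward SKYD and 7.38% toward PDR. Cd5, which T cells also express, had 254 and 884 reads, Zbtb32 had 1010 and 254, and Tppp3 had 14780 and 23636. The 3 most abundant B-1 genes thus did not share one direction.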
